A study of Mus musculus with 12 samples.

Results

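The comparison described here is that of 4 arrays from hosts treated with Cl-BBQ with 4 arrays from hosts given vehicle, 8 of the 12 arrays of the series. The arrays were taken by their treatment labels, and 19938 genes were described on them, each by 1 probe set. The RNA was that of CD4+ T cells of donor origin, sorted as having gone through at least 2 divisions by dilution of the dye CFSE. Splenocytes of C57Bl/6 mice had been injected into B6D2F1 hosts, which carry a second parental strain and so provoke a graft-versus-host response, and cells of spleen and lymph node were collected on day 2 (48 hr). Donors and hosts were 10 to 12 weeks old. The Cl-BBQ group received 2 mg/kg intraperitoneally on days 0 and 1, and the vehicle group received vehicle on the same days. The remaining 4 arrays came from hosts given TCDD at 15 µg/kg on day 0 only. Because the dose and schedule of TCDD differ from those of Cl-BBQ, its values stand beside those of Cl-BBQ for orientation and the compounds were not compared. The TCDD arrays also entered the estimate of the spread between arrays. The host was dosed and not the isolated cells, so donor and host cells were both exposed. The labels call the arrays biological replicates with 4 mice per group, and do not say whether RNA was pooled.

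Cl-BBQ and TCDD are ligands of the AhR, the aryl hydrocarbon receptor. This transcription factor waits in the cytoplasm in a complex with chaperones. Bound by a ligand, it moves to the nucleus, pairs with Arnt and binds DNA elements with the core GCGTG, and genes such as Cyp1a1, Cyp1b1, Tiparp and its own repressor Ahrr are switched on. In CD4+ T cells the receptor is known for acting on differentiation, including regulatory and interleukin-22 producing fates. The comparison asks what exposure of the host to Cl-BBQ had changed in the dividing donor cells by day 2.

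The upstream sequences of 5 genes are shown because the receptor's core motif lies in them and their expression is described below: Cyp1b1 and Ahrr are textbook targets, and Il12rb2, Emp1 and Hic1 were higher with Cl-BBQ. Each is the 250 bases before a RefSeq start of the gene (GRCm38.p6), 5′ to 3′ on the gene's strand, in lower case with every GCGTG, or CACGC where the motif is on the opposite strand, in capitals. Emp1 and Hic1 have 2 such windows, of which the one with more motifs is shown. They lie at chr17:79715062-79715311, minus strand (Cyp1b1), chr13:74292332-74292581, minus strand (Ahrr), chr6:67376189-67376438, minus strand (Il12rb2), chr6:135367243-135367492, plus strand (Emp1) and chr11:75170256-75170505, minus strand (Hic1).
Cyp1b1: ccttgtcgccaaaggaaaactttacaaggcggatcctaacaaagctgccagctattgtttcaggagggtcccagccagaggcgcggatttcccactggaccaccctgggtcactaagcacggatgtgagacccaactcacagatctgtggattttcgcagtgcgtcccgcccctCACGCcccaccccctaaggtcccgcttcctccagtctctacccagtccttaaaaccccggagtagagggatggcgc
Ahrr: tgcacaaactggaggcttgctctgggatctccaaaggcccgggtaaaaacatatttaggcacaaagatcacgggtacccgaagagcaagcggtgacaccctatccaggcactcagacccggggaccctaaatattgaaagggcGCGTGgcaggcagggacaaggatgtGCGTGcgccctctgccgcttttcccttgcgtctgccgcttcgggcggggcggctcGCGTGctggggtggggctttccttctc
Il12rb2: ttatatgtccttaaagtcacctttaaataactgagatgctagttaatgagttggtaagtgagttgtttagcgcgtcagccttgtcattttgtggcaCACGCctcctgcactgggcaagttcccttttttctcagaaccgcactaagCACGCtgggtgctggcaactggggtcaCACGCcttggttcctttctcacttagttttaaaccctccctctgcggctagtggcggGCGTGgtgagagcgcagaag
Emp1: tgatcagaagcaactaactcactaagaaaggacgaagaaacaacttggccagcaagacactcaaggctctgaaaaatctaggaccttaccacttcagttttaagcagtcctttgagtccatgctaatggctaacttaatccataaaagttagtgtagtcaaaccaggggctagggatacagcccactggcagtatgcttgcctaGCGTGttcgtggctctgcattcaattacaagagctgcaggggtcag
Hic1: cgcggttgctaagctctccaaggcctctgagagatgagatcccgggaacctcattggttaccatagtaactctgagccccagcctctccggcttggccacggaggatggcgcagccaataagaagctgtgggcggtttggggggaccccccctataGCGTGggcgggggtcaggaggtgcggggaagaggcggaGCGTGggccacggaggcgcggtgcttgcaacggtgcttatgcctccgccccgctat
A gene with several starts was counted where any of its windows held the motif. The core occurred once or more in 11 of the 23 higher genes that have such a window (47.8%), in 1 of 8 lower genes (12.5%) and in 6 of 9 AhR target genes (66.7%). Of all measured genes with a window, 6152 of 15614 held it (39.4%). The longer form TNGCGTG, which contains the core, was in 4 of the 23 higher genes (17.4%), 0 of 8 lower genes, 1 of 9 AhR targets (11.1%) and 6.10% of all. The windows of Ccr9, Gzma, Gpr15, Myo1f and Gzmb, which rose 2-fold or more, and that of Cldnd1 held 0 core motifs. A match describes letters in the window and not a bound site.

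Of 19938 genes, 39 (0.196%) were called, meaning that limma's Benjamini-Hochberg adjusted p over all genes was under 0.05. The higher genes numbered 29 (0.145% of those tested) and the lower genes 10 (0.0502%). Receptors for migration, granzymes, an interleukin-12 receptor chain and genes of adhesion and the cell cortex were among those that rose, and a catenin-like gene, integrin beta 1, Cd86 and Sema4a were among those that fell. Rises were 1.18- to 3.68-fold and falls 1.33- to 1.85-fold, and 6 genes changed 2-fold or more. The number of calls depended on single arrays. It was 3 without Cl-BBQ array 2, 16 without Cl-BBQ array 4, 61 without Cl-BBQ array 1, 9 without vehicle array 1 and 4 without vehicle array 4, and Myo1f, Cldnd1 and Ctnnal1 were called in all 8 fits with an array left out. The p-values rest on the spread between arrays within all 3 groups, because the 4 TCDD arrays entered the fit. A fit of the 8 Cl-BBQ and vehicle arrays alone called 11 genes, 9 of them among the 39. The 39 called genes did not overlap between the Cl-BBQ and vehicle arrays, and neither did 768 genes in all (3.85%).

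**Figure D1:**
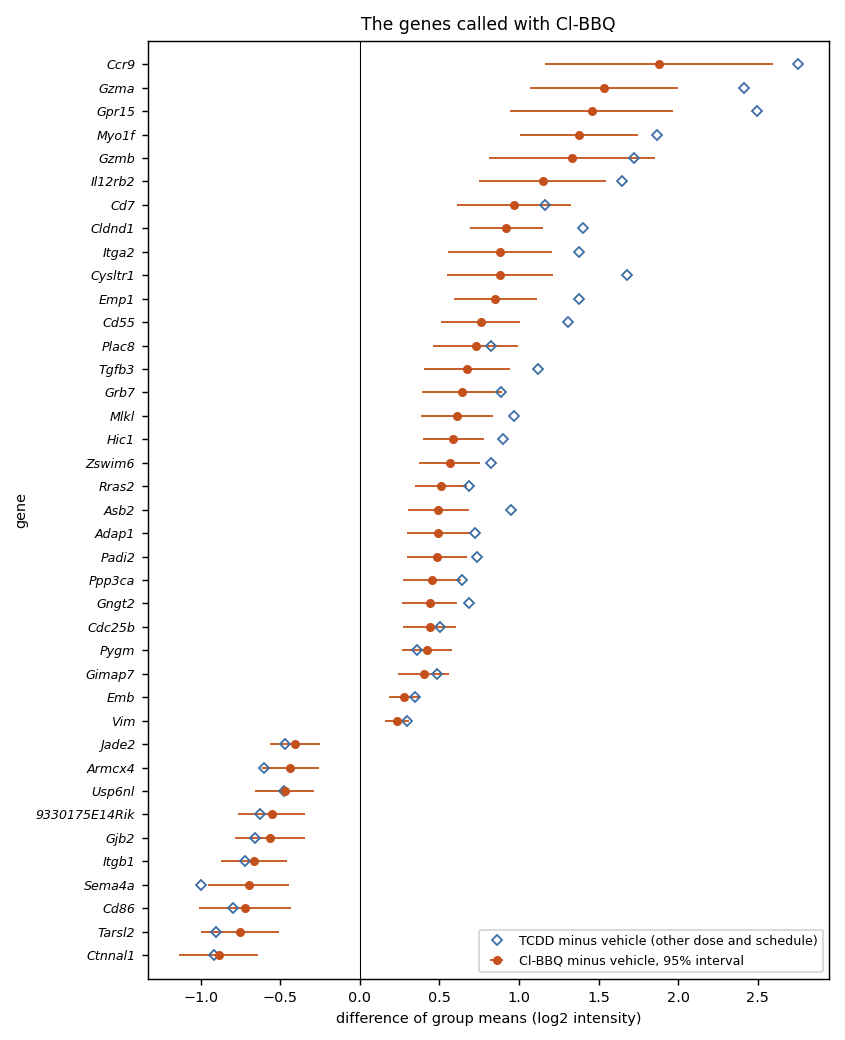
The 39 called genes in order of their difference from vehicle (horizontal axis, log2 intensity; vertical axis, gene), as points with 95% intervals, and the TCDD minus vehicle difference of the same genes as open diamonds. Ccr9, Gzma and Gpr15 lie farthest to the right and Ctnnal1 farthest to the left.

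Receptors that guide cells through tissues were among the largest rises. Ccr9 (probe set 10590620), the receptor for the gut chemokine CCL25, measured 8.61, 10.01, 8.97 and 10.23 in Cl-BBQ arrays 1 to 4 and 7.97, 8.20, 7.07 and 7.07 in vehicle arrays 1 to 4 (log2 intensity, as are all levels below). Cl-BBQ arrays 2 and 4 were the high ones, and the lowest Cl-BBQ array still lay above the highest vehicle array. The mean difference was 1.88 (95% interval 1.16 to 2.59), a 3.68-fold rise with an adjusted p of 0.0362 from limma, and it was called in 3 of 8 fits with an array left out. In TCDD arrays Ccr9 measured 9.78 to 10.76.

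Gpr15 (probe set 10440131), a receptor that directs T cells to the large intestine, measured 7.81, 8.52, 7.20 and 8.16 with Cl-BBQ and 6.31, 6.59, 6.21 and 6.75 with vehicle. Array 3 was the lowest of the Cl-BBQ arrays and lay above all vehicle arrays. The rise was 2.75-fold (log2 difference 1.46, 95% interval 0.95 to 1.97, limma adjusted p = 0.0243). TCDD arrays measured 8.30 to 9.31. Cysltr1 (probe set 10606355), a receptor for cysteinyl leukotrienes, measured 7.30, 7.18, 7.06 and 7.08 against 6.29, 6.52, 6.19 and 6.11. Its Cl-BBQ arrays lay close together, and the groups did not overlap. It rose 1.84-fold (0.88, 95% interval 0.54 to 1.21, limma adjusted p = 0.0362). Gpr15 and Cysltr1 were each called in 3 of 8 fits with an array left out. The list of chemokine and homing receptors held 23 measured genes, of which these 3 rose, 0 fell and 20 were not called. Its median difference was 0.07 log2, beside 0.01 over all genes. Among those not called, Cxcr6, the receptor for CXCL16, differed by 0.88 with an adjusted p of 0.0821 and did not overlap between groups. The share called over all genes was 0.196%. Lists were chosen with earlier results of these data known, so the counts of calls in this and later lists are a description.

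Granzymes and an interleukin-12 receptor chain were higher as well. Gzma (probe set 10412211), a serine protease of cytotoxic granules, measured 9.56, 9.58, 8.63 and 9.42 with Cl-BBQ and 7.96, 8.30, 7.54 and 7.26 with vehicle. Arrays 1, 2 and 4 were close together and array 3 was lower, yet above every vehicle array. The difference of 1.53 (95% interval 1.07 to 2.00) was a 2.89-fold rise with a limma adjusted p of 0.0135, called in 6 of 8 fits with an array left out. Gzmb (probe set 10420308), the granzyme that cuts caspases in target cells, measured 12.53, 11.61, 12.20 and 11.43 against 10.98, 11.11, 10.44 and 9.92. Here arrays 1 and 3 were the high ones. It rose 2.52-fold (1.33, 95% interval 0.81 to 1.85, limma adjusted p = 0.0385) and was called in 3 of the 8 fits. Without array 3 its adjusted p was 0.0815. TCDD arrays measured 9.97 to 10.53 for Gzma and 12.08 to 12.65 for Gzmb. Granzyme genes are a family of similar sequences, and how far the probe sets are shared by relatives was not examined. Of 21 measured granule genes these 2 rose, 0 fell and 19 were not called, with a median of 0.02. Prf1, which encodes the pore-forming perforin, had a difference of 0.42 (adjusted p = 0.118).

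Il12rb2 (probe set 10545135), the inducible chain of the interleukin-12 receptor, whose upstream window holds 4 core motifs, measured 11.01, 10.11, 10.25 and 9.85 with Cl-BBQ and 9.54, 9.01, 8.93 and 9.15 with vehicle. Array 1 was highest, and the groups did not overlap. The rise was 2.22-fold (1.15, 95% interval 0.75 to 1.55, limma adjusted p = 0.0243). It was called in 4 of 8 fits with an array left out. It was the 1 called gene among 21 measured Th1 genes, whose median was 0.01. Runx3, a factor that works with T-bet, had a difference of 0.26 (adjusted p = 0.11), and Eomes, a T-box factor, −0.49 (adjusted p = 0.196). Both had groups that did not overlap and neither was called.

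Genes of adhesion and cell junctions changed in both directions. Itga2 (probe set 10412267), the integrin alpha chain of a collagen receptor, measured 8.18, 8.58, 8.16 and 8.38 with Cl-BBQ and 7.50, 7.69, 7.35 and 7.23 with vehicle. The groups did not overlap, and the rise was 1.84-fold (0.88, 95% interval 0.55 to 1.21, limma adjusted p = 0.0336). Itgb1 (probe set 10576661), the beta chain that pairs with Itga2, measured 9.89, 9.92, 10.10 and 9.59 against 10.52, 10.64, 10.34 and 10.67. Array 3 was the highest of its Cl-BBQ arrays and lay below every vehicle array. It fell 1.59-fold (−0.67, 95% interval −0.87 to −0.46, limma adjusted p = 0.0135). Itga2 was called in 3 and Itgb1 in 6 of 8 fits with an array left out. These were the 2 calls among 17 integrin chains, whose median was 0.10.

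Cldnd1 (probe set 10436402), a claudin-like membrane protein, had the smallest adjusted p of all genes. Its arrays measured 12.43, 12.26, 11.80 and 12.01 with Cl-BBQ and 11.15, 11.21, 11.01 and 11.46 with vehicle, with no overlap. It rose 1.89-fold (0.92, 95% interval 0.69 to 1.15, limma adjusted p = 0.00573). Myo1f (probe set 10443980), a motor protein of the cell cortex in leukocytes, measured 8.41, 8.79, 8.71 and 8.87 against 7.58, 7.66, 7.21 and 6.83. Vehicle arrays spread more than Cl-BBQ arrays for this gene. The rise was 2.6-fold (1.38, 95% interval 1.01 to 1.74, limma adjusted p = 0.0068). Ctnnal1 (probe set 10513061), a relative of alpha-catenin, measured 7.48, 7.77, 7.88 and 7.29 with Cl-BBQ and 8.49, 8.55, 8.23 and 8.70 with vehicle. All Cl-BBQ arrays lay below all vehicle arrays. The fall was 1.85-fold (−0.89, 95% interval −1.14 to −0.64, limma adjusted p = 0.00889). TCDD arrays measured 12.55 to 12.64 for Cldnd1, 8.76 to 9.44 for Myo1f and 7.53 to 7.66 for Ctnnal1. Myo1f was the 1 call among 14 unconventional myosins. Of 19 measured genes in the list of junction, catenin and claudin-like genes, Cldnd1 and Emp1 rose and Ctnnal1 and Gjb2 fell. That list was chosen with earlier results of these data known, so its count of calls is no result about junctions. Emp1, a small membrane protein of the PMP22 family, rose 1.8-fold (adjusted p = 0.0135), and Gjb2, a gap junction connexin, fell 1.48-fold (adjusted p = 0.0385).

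**Figure D2:**
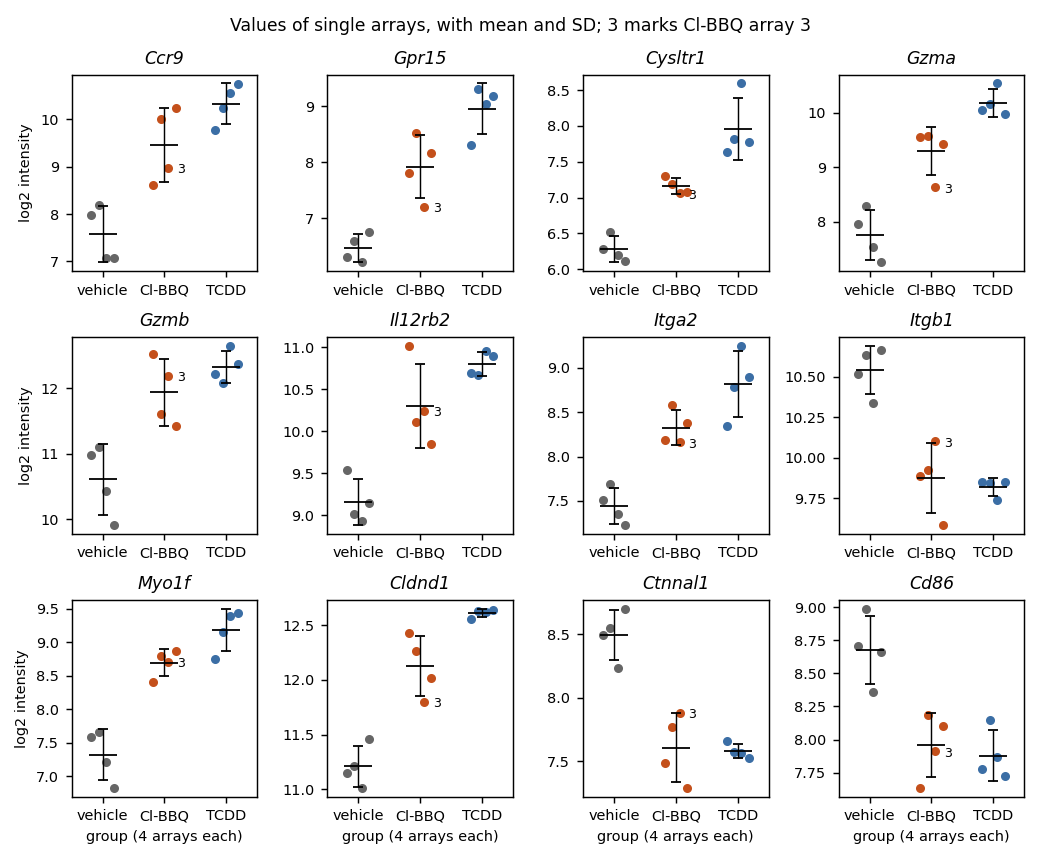
Log2 intensity (vertical axes) of 12 called genes on single arrays in vehicle, Cl-BBQ and TCDD hosts (horizontal axes), 4 arrays each, with mean and SD in black and the digit 3 beside Cl-BBQ array 3. In none of the 12 do the Cl-BBQ and vehicle points overlap, and array 3 is the lowest Cl-BBQ point for Gpr15, Cysltr1, Gzma, Itga2 and Cldnd1.

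Of the other genes that rose, several encode surface or secreted proteins. Cd7, an immunoglobulin-family co-stimulatory receptor, measured 9.60, 10.33, 9.68 and 10.32 with Cl-BBQ and 9.21, 9.26, 8.84 and 8.74 with vehicle. Arrays 2 and 4 were its high arrays, as they were for Ccr9. It rose 1.96-fold (0.97, limma adjusted p = 0.0336). With Cd86, which fell, it made up the calls among 20 measured genes of co-stimulation and the TNF family. Cd55, an inhibitor of complement, rose 1.69-fold (adjusted p = 0.0146). Tgfb3, a TGF-beta cytokine, rose 1.59-fold (adjusted p = 0.0421) and was the 1 call among 16 measured Treg genes. Plac8, a small cysteine-rich protein, rose 1.66-fold and Emb, an immunoglobulin-family glycoprotein, 1.21-fold (adjusted p = 0.0336 and 0.0243). Of 8 fits with an array left out, Tgfb3 was called in 2, Cd7 in 3, Plac8 and Emb in 4 and Cd55 in 5.

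The remaining genes that rose encode proteins inside the cell. Rras2, a small GTPase of the Ras family, rose 1.42-fold (adjusted p = 0.0146). Ppp3ca, the catalytic subunit of calcineurin, rose 1.37-fold, Grb7, an adaptor of receptor kinases, 1.56-fold, and Gngt2, a G protein gamma subunit, 1.35-fold (adjusted p = 0.0398, 0.0385 and 0.0398). Adap1, an Arf GTPase-activating protein, rose 1.41-fold and Gimap7, a GTPase of lymphocytes, 1.32-fold (adjusted p = 0.0398 and 0.0421). Mlkl, the executor of necroptosis, rose 1.53-fold (adjusted p = 0.0336). Cdc25b, a phosphatase that activates cyclin-dependent kinases, rose 1.35-fold (adjusted p = 0.0385). Among nuclear and other intracellular proteins, Hic1, a zinc-finger repressor, measured 7.73, 7.87, 7.53 and 7.97 with Cl-BBQ against 7.28, 7.07, 7.22 and 7.19. All its Cl-BBQ arrays lay above all vehicle arrays, a rise of 1.5-fold (adjusted p = 0.0146). Zswim6 rose 1.48-fold, Asb2, which selects substrates for a ubiquitin ligase, 1.41-fold, and Padi2, which turns arginine into citrulline, 1.4-fold (adjusted p = 0.0199, 0.0385 and 0.0385). Pygm, a glycogen phosphorylase, rose 1.34-fold and Vim, an intermediate filament protein, 1.18-fold (adjusted p = 0.0358 and 0.0146). Of 8 fits with an array left out, Asb2, Padi2 and Gngt2 were called in 1. Pygm, Adap1, Cdc25b, Grb7 and Ppp3ca were called in 2 and Gimap7 in 3. Mlkl and Zswim6 were called in 4, and Rras2, Hic1 and Vim in 6.

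Beyond Ctnnal1, Itgb1 and Gjb2, 7 genes fell. Cd86 (probe set 10439312), a ligand of CD28 and CTLA-4 that antigen-presenting cells and some activated T cells carry, measured 7.64, 8.18, 7.91 and 8.10 with Cl-BBQ and 8.71, 8.98, 8.36 and 8.66 with vehicle. The groups did not overlap, and the fall was 1.65-fold (−0.72, 95% interval −1.01 to −0.43, limma adjusted p = 0.0421). It was called in 1 of 8 fits with an array left out, the one without vehicle array 3, with adjusted p-values up to 0.146 in the others. The summed linear intensity of 13 B and plasma cell markers ran from 1290 to 1410 in Cl-BBQ arrays and from 1420 to 1660 in vehicle arrays, although 6 of the 13 had differences above 0 and their median was −0.01. Cd22, Bank1 and Cd72 had the lowest, at −0.62, −0.41 and −0.35, and 0 of the 13 were called. The part of B cells in the Cd86 result was not tested. Sema4a, a semaphorin, measured 7.98, 8.27, 8.45 and 8.50 against 9.08, 9.16, 8.80 and 8.96. It fell 1.62-fold without overlap (adjusted p = 0.0336), the 1 call among 18 semaphorin and plexin genes. Tarsl2, a threonyl-tRNA synthetase-like gene, fell 1.68-fold (adjusted p = 0.0146). It was the 1 call among 18 measured aminoacyl-tRNA synthetase genes, 16 of which had differences below 0, with a median of −0.08. Armcx4, Jade2, a PHD-finger protein, Usp6nl, a Rab GTPase-activating protein, and 9330175E14Rik fell 1.35-fold, 1.33-fold, 1.39-fold and 1.47-fold (adjusted p = 0.0469, 0.0385, 0.0398 and 0.0358). Usp6nl was called in 0 of the 8 fits with an array left out and each of the other 3 in 2, against 5 for Tarsl2 and 4 for Sema4a.

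Among the textbook targets of the receptor, differences were mostly above 0 and none was called with all 4 Cl-BBQ arrays. Of 12 measured AhR target genes, 0 were called, 11 had differences above 0, the median was 0.20, and Ahrr, Nqo1 and Selenbp1 did not overlap between groups. Over all genes, 0.196% were called and 3.85% did not overlap. Cyp1b1 (probe set 10453057), a cytochrome P450, measured 8.24, 7.90, 5.93 and 7.89 with Cl-BBQ and 6.25, 6.57, 6.31 and 6.32 with vehicle. Arrays 1, 2 and 4 were far above every vehicle array, while array 3 lay below every vehicle array. Over all 4 arrays the difference was 1.13 (95% interval 0.41 to 1.84, limma adjusted p = 0.298). TCDD arrays measured 9.67 to 9.92.

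Nqo1 (probe set 10581538), a quinone reductase, measured 7.31, 7.67, 6.59 and 7.03 with Cl-BBQ and 6.25, 6.41, 6.10 and 6.52 with vehicle, with array 3 just above the highest vehicle array. Its difference was 0.83 (limma adjusted p = 0.0735). Ahrr (probe set 10410604), the receptor's repressor, measured 6.21, 6.33, 5.95 and 6.27 against 5.79, 5.88, 5.80 and 5.73. Array 3 was again the lowest Cl-BBQ array, above the vehicle arrays. The difference was 0.39 (adjusted p = 0.129). Tiparp (probe set 10492428), an ADP-ribosyltransferase that represses the receptor, measured 9.73, 9.66, 9.25 and 9.53 against 9.25, 9.35, 9.37 and 9.47. Array 3 was at the level of the lowest vehicle array, and the groups overlapped. Its difference was 0.18 (adjusted p = 0.67). Cyp1a1 (probe set 10585749), a cytochrome P450 and the classic target, measured 6.89, 6.43, 6.43 and 6.56 against 6.46, 6.45, 6.26 and 6.26. Array 1 was its high array, and the groups overlapped. The difference was 0.22 (adjusted p = 0.587). TCDD arrays measured 7.85 to 8.27 for Nqo1, 6.53 to 6.96 for Ahrr, 10.12 to 10.31 for Tiparp and 7.01 to 7.17 for Cyp1a1. Of 8 genes of the receptor and its partners 0 were called, and Ahr itself differed by −0.18 (adjusted p = 0.625).

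**Figure D3:**
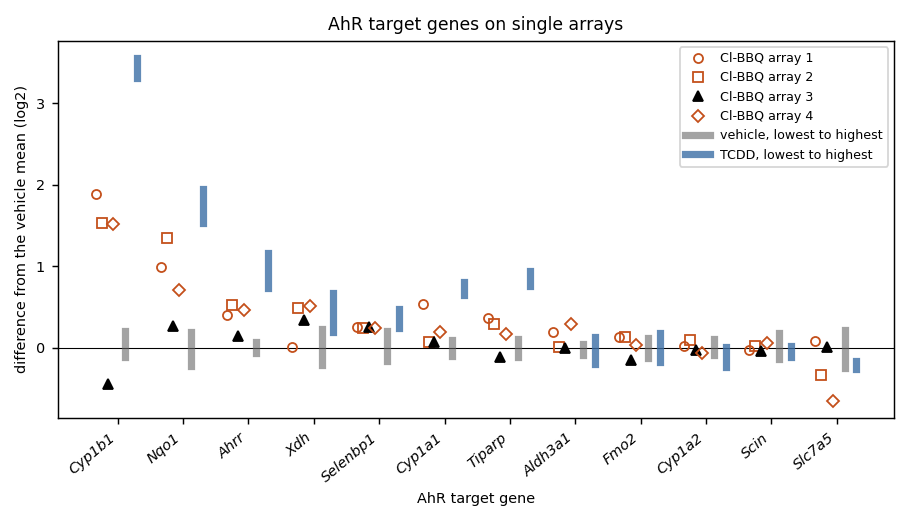
Difference from the vehicle mean (vertical axis, log2) of the 12 measured AhR target genes (horizontal axis) on each Cl-BBQ array, with array 3 in black and the lowest to highest vehicle and TCDD arrays as grey and blue bars. Array 3 lies below the vehicle bar for Cyp1b1 and, by a narrow margin, for Tiparp, and for both genes the other Cl-BBQ arrays lie above it.

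Cl-BBQ array 3 was the lowest Cl-BBQ array for Cyp1b1, Nqo1, Ahrr and Tiparp. For Cyp1a1 it was level with array 2, and for Selenbp1, which measured 7.02, 7.00, 7.02 and 7.01, it was the highest by a narrow margin. Across genes, which are not independent replicates, it correlated on average at 0.9966 with the other Cl-BBQ arrays and at 0.9971 with the vehicle arrays. Arrays 1, 2 and 4 correlated at 0.9944, 0.9961 and 0.9955 with the other Cl-BBQ arrays and at 0.9945, 0.9963 and 0.9951 with the vehicle arrays. Its value was an outlier by Dixon's test among the Cl-BBQ arrays in 128 genes (0.642%), and those of arrays 1, 2 and 4 in 479, 172 and 256 genes. In 20 of the 39 called genes it was the Cl-BBQ array nearest to vehicle, and in 0 the farthest. Its mean difference from vehicle over the 29 higher genes was 0.62, against 0.75, 0.91 and 0.81 for arrays 1, 2 and 4, and over the 10 lower genes −0.49 against −0.77, −0.56 and −0.64. The called genes were chosen with this array among them, so these values are a description.

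Without array 3, 44 genes were called (0.221%), 30 higher and 14 lower, and 30 of them were among the 39. Genes lost were Gzmb, Cd86, Adap1, Cdc25b, Gngt2, Padi2, Ppp3ca, Pygm and Usp6nl. Among the 14 gained, the AhR targets Cyp1b1, Nqo1 and Ahrr had log2 differences of 1.65, 1.02 and 0.47 and adjusted p-values of 3.5e-06, 0.00721 and 0.0492. Because the array stands out by these very genes, their calls without it are a description and no test. Prf1 (0.51), Socs3 (0.42), an inhibitor of cytokine signalling, Myo10 (0.56), an unconventional myosin, L1cam (0.63), a neural adhesion molecule, and Rasgrp4 (0.69), an activator of Ras, were gained as higher. Lif (−0.64), a cytokine of the interleukin-6 family, Cdk6 (−0.58), a cell-cycle kinase, Rpp40 (−0.63), a subunit of ribonuclease P, and Tmtc4 (−0.50) were gained as lower. L1cam was the first gene outside the threshold with all arrays (0.57, adjusted p = 0.0508), next to Armcx4 just inside it.

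The array's position was also read in genes that it had no part in choosing. Of the 44 genes called without array 3, it lay on the same side of the vehicle mean as the other 3 Cl-BBQ arrays in 43, and beyond every vehicle array on that side in 42. Over all genes these shares were 65.9% and 23%. Its distance from the vehicle mean was a median of 0.602 of the mean distance of the other 3. The exception was Cyp1b1, at −0.265. Serpinf1, chosen for mention after its value was seen, was at 0.00661, while Nqo1 was at 0.266, Ahrr at 0.314 and Myo1f at 1.02. Array 1 gave 60 of 61 genes on the same side with a median of 0.659, the exception being Cyth4 at −0.068. Array 4 gave 15 of 16 with 0.976, the exception being Havcr2 at −0.4915. Array 2 gave 3 of 3 with 1.09. The same vehicle arrays enter the choice and the reading, and choosing genes on the other arrays favours ratios under 1, so no test was made.

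**Figure D4:**
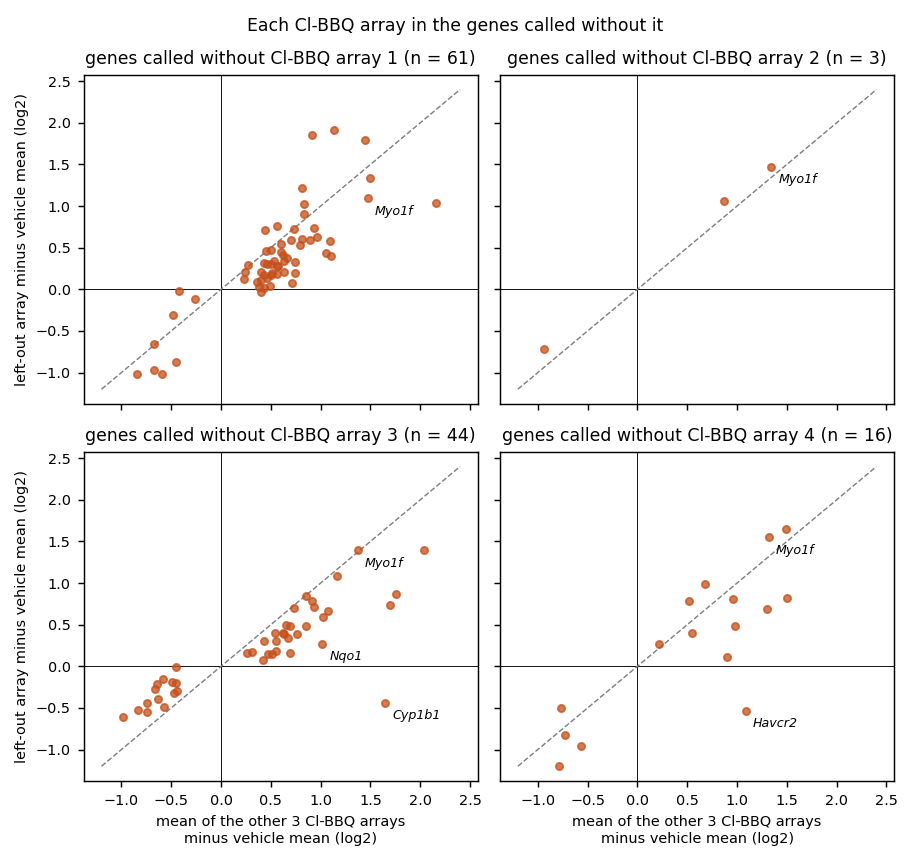
Genes called in the fit without each Cl-BBQ array, with the mean of the other 3 arrays minus the vehicle mean (horizontal axes, log2) against the left-out array minus the vehicle mean (vertical axes, log2), and a dashed line where both are equal. For array 3, 43 of 44 genes lie on the same side of 0 on both axes, and Cyp1b1 lies below 0 on the vertical axis.

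Most gene lists held no called gene. Th2 (10 measured genes), Th17 and Th22 (10), Tfh (10), Tr1 and co-inhibitory receptors (18), interleukin-2 and STAT5 (16), naive and quiescence (16), glycolysis (14), cholesterol synthesis (13), NRF2 (12), apoptosis (12), ER stress (18), early response (18) and T cell receptor signalling (17) all had 0 calls in limma. Over all genes 39 of 19938 were called (0.196%), so 0 calls in lists this small is no result about them. By limma, 1577 of all genes had an unadjusted p under 0.05. Il7r, the interleukin-7 receptor of resting T cells, had a difference of 0.68 without overlap (adjusted p = 0.163). Prdm1, which encodes the repressor Blimp-1, had 0.70 with overlap (adjusted p = 0.159), and Nrp1, a semaphorin co-receptor found on regulatory T cells, −0.64 without overlap (adjusted p = 0.126). In the interferon list of 19, 0 were called, and Ifitm1, Ifitm2 and Ifitm3, small membrane proteins that restrict viruses, lay above vehicle without overlap, Ifitm3 by 0.75 (adjusted p = 0.151). Groups without overlap were found in 3.85% of all genes. Of 28 measured proliferation genes, 0 were called, 26 had differences below 0, the median was −0.07, and Cdc6, which loads the replicative helicase, had the lowest (−0.24, adjusted p = 0.685). Across all genes the median 95% interval, unadjusted for the number of genes, extended 0.17 log2 to either side. Smaller differences were mostly not resolved, and larger ones could also go without a call. The smallest called difference was 0.23 (Vim), while Ifitm3 at 0.75 was not called. Members of a list are not independent of each other, and the medians are a description.

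**Figure D5:**
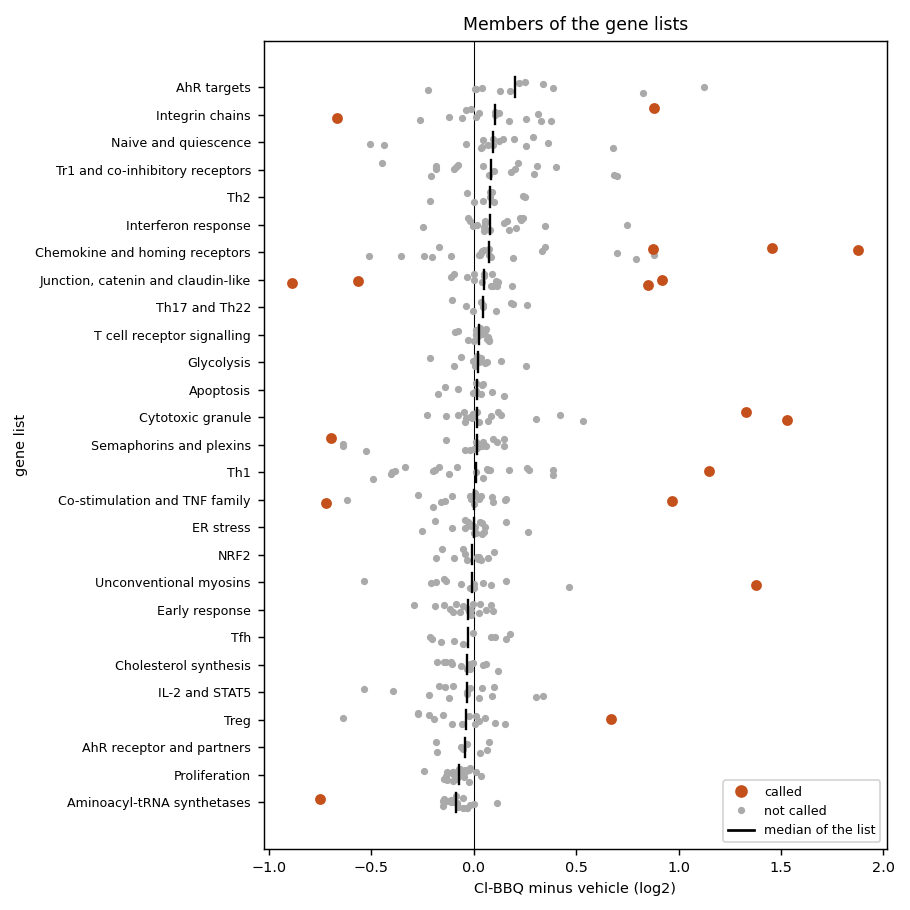
Cl-BBQ minus vehicle differences (horizontal axis, log2) of the measured members of 27 gene lists (vertical axis), called genes in orange, others in grey, with the list's median as a bar. Medians lie between −0.08 and 0.20, highest for AhR targets and lowest for aminoacyl-tRNA synthetases.

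Cd4 itself had a mean of 12.42 with Cl-BBQ and 12.44 with vehicle. The summed linear intensity of 11 CD4 T cell markers was 54100 to 61000 with Cl-BBQ and 55000 to 58900 with vehicle. Among markers of other cells, the sum of 21 myeloid and dendritic markers was 2180 to 2260 against 2120 to 2300, that of 2 CD8 markers 952 to 1200 against 978 to 1310, and that of 8 NK markers, which include Gzma and Nkg7, 2630 to 3460 against 1590 to 3050. Levels of different probe sets cannot be compared, so these sums are read between groups and not between cell types. Of the 8 NK markers, 3 had differences above 0 and 5 below 0, with a median of −0.08. Gzma had the highest, at 1.53, and Eomes the lowest, at −0.49. Sums of 13 neutrophil and platelet markers were 1000 to 1120 with Cl-BBQ and 922 to 1060 with vehicle, and of 3 erythroid markers 375 to 418 and 359 to 422. Of the 71 measured markers, Gzma was the 1 that was called. In RNA of sorted cells, fewer cells of a type and less RNA per cell cannot be told apart, and the part of other cells in the granzyme results was not tested.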

How the data were processed

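The deposited values were log2 intensities summarised by the authors with robust multi-array average (RMA), per the submitters' processing notes. Not given in the sources used here are the software version, probe library and the arrays processed together. The log2 scale was read from the values (2.49 to 14.2). Of 35556 probe sets, 21789 had 1 gene symbol, 1621 several and 12146 none in the probe table. For the 999 genes with several probe sets, the brightest over 12 arrays was kept. The labels name a labelling kit for 3′ arrays, the probe table a whole-transcript array.

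A single model of all 3 groups was fitted (limma 3.58.1 under R 4.3.3, trended empirical Bayes, 9 residual degrees of freedom, two-sided), with Benjamini-Hochberg adjustment over all 19938 genes. A fold is 2 to the power of a difference between means of deposited log2 values. Motifs were counted on both strands. Figures used matplotlib 3.10.9. Precision is limited by the number of arrays. The TCDD against Cl-BBQ contrast, planned, is not reported since dose and schedule differ.

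Named genes were all called genes, Cyp1a1, Cyp1b1, Ahrr, Tiparp and Nqo1, up to 5 members per list with the smallest p, the 10 largest differences gained without Cl-BBQ array 3, and the 8 widest-spread genes. Members and lists were chosen with earlier results of these data known. Alternatives covered samples, moderation, normalization, dim genes, probe sets, array weights and left-out arrays.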

Additional observations from a re-analysis of the deposited data

Results flagged for a closer look

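Of 61 genes examined in both groups (122 group tests), 10 had 1 array standing apart from the other 3 of its group by Dixon's test at the 95% level. Chance flags about 1 in 20 groups of genes that were not picked by their spread. Some of the 61 were picked for a wide spread among Cl-BBQ arrays or for being called only without Cl-BBQ array 3. That rate therefore does not apply to them. In Cl-BBQ array 3, Cyp1b1 at 5.93, Gzma at 8.63 and Myo10 at 7.98 lay below the other Cl-BBQ arrays. In Cl-BBQ array 2, Adap1 stood apart at 8.02. In vehicle array 3, Armcx4 at 7.61, Mlkl at 8.08 and L1cam at 7.40 lay below the other vehicle arrays, and Aspn at 7.96 and Omd at 8.02, genes of small leucine-rich proteoglycans, above them. In vehicle array 2, Pygm stood apart at 7.83.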

How the results depend on the processing

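Beside the 39 calls, a fit of the 8 arrays alone gave 11 (9 of the 39), 18 arose without the intensity trend, 8 after median centring and 71 after quantile normalization. Fits with 1 array left out gave 3 to 61. Added after seeing the data, the 8 arrays without Cl-BBQ array 3 gave 22, of which 16 were among the 39. With the number as a replicate block, the fit called 111 genes (72 higher, 39 lower), including all 39. The labels do not tie the numbers to a shared day or litter, deviations of same-numbered Cl-BBQ and vehicle arrays correlated at −0.134 to 0.0871, and 0 of 4 Cl-BBQ arrays were closest to the vehicle array of the same number. Same-numbered Cl-BBQ and TCDD arrays, which enter the same model, correlated at 0.606, 0.113, 0.157 and 0.365. Genes called with the block and not without it included the AhR target Nqo1 (adjusted p = 0.00644), Cxcr6 (0.0129), L1cam (0.0138), Dapl1 (0.0248), Il7r (0.0255), Eomes (0.0259), Nrp1 (0.0322), Lif (0.0397) and Prf1 (0.0436), all by limma with Benjamini-Hochberg adjustment. Each of 35556 probe sets tested alone gave 0 calls in limma, where 2305 had an unadjusted p under 0.05; no other tool was run. The count stayed within 1.5 times of 39 with robust moderation, dim genes removed, the mean of probe sets and array weights. For 123 genes over 17 alternatives, 6 genes being left out by the dim filter, the side of the threshold was kept in 1759 cases, a call lost in 268 and gained in 58, and the direction reversed in 0. Most of these genes were picked for differing on these same arrays, and the alternatives share most of the arrays. Reversals were therefore unlikely beforehand, and their absence is a description. Causes were not tested. The median difference over all genes was 0.0107 in the main fit, −0.004 after median centring and 0.0122 after quantile normalization. Both procedures bring the arrays to a common level, so a median near 0 is no check of the calls. Of the called genes, 0 lay under the dim filter, the 40 percentile of mean level.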

Other observations

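Gpr15 and Cldnd1 are neighbours in the RefSeq order of genes, and were the 1 adjacent pair among the 39 called genes in which both were called. Cpox, a heme synthesis enzyme on the other side of Gpr15, was chosen after its values were seen: it measured 11.22, 10.78, 10.52 and 10.38 with Cl-BBQ and 10.34, 10.16, 10.12 and 10.33 with vehicle, a difference of 0.49 without overlap (limma adjusted p = 0.188). Gzmk beside Gzma and Gzmc beside Gzmb, both granzymes, had differences of 0.12 and 0.07.

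The genes with the widest spread among Cl-BBQ arrays included more than AhR targets. The SD of 4 Cl-BBQ arrays was 1.05 for Cyp1b1, 0.93 for Aspn, 0.91 for Phxr4 and 0.88 for Havcr2. It was 0.82 for Sccpdh, 0.79 for Ccr9, 0.78 for Omd and 0.78 for F630048H11Rik, against a median of 0.11 over all genes. With vehicle the SDs were 0.14, 0.87, 1.03, 0.19, 0.79, 0.59, 0.93 and 0.68 in the same order, against a median of 0.10. Of these genes, only Cyp1b1 and Havcr2 had a narrow spread with vehicle. Havcr2, the checkpoint receptor TIM-3, measured 10.54, 9.70, 10.00 and 8.46 with Cl-BBQ, highest on array 1 and lowest on array 4, and 9.14, 9.16, 8.85 and 8.81 with vehicle. Aspn measured 7.93, 5.89, 7.18 and 6.21 and Omd 7.87, 6.06, 6.96 and 6.45 with Cl-BBQ, both high on arrays 1 and 3, and 6.06, 6.34, 7.96 and 6.35 and 6.21, 6.05, 8.02 and 6.26 with vehicle, both high on array 3. Sccpdh measured 7.54, 9.19, 7.89 and 9.05 with Cl-BBQ, low on arrays 1 and 3, and 7.54, 8.05, 7.63 and 9.25 with vehicle. Vehicle arrays 1 and 3 were also the lowest of their group.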
